A study of Ictalurus punctatus x Ictalurus furcatus and Ictalurus furcatus and Ictalurus punctatus with 8 samples.

Results

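The genes of amino acid breakdown and one-carbon metabolism were followed in catfish liver. They were taken by name: a gene was a member when its symbol, whatever its case, began with or equalled that of an enzyme on a list of these pathways, and 89 of the 13444 genes in the deposited table did so. The livers came from 4 genetic types, 2 fish of each, all 12 months old. F1CB hybrids had a channel catfish (Ictalurus punctatus) dam and a blue catfish (Ictalurus furcatus) sire, F1BC hybrids came from the reciprocal cross, with a blue dam and a channel sire, and PC and PB are the purebred channel and blue catfish. No fish was treated, and each type was reared in a tank of its own, so effects of type and of tank cannot be told apart. By their descriptions in the table, 5 members encode proteins of other pathways, namely got1a (vesicle transport), mtrex (an RNA helicase of the exosome), mtrf1l and mtres1 (mitochondrial translation and transcription) and cthrc1b (a collagen repeat protein). They were kept as members and are named where they were called. Others, such as mthfsd, ahcyl1 and ahcyl2b, are described only by a domain or a likeness to an enzyme. Their place among the pathway genes rests on their names and was not checked. The urea cycle gene cps1 and the creatine synthesis gene gatm, which the list also holds, are not analysed here.

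The liver is the main site at which surplus amino acids lose their nitrogen. Transaminases move it to glutamate, from which glutamate dehydrogenase releases ammonia. Glutamine synthetase traps ammonia as glutamine, and glutaminase releases it from glutamine. Most adult bony fishes pass ammonia out through the gills, and their urea cycle runs at a low rate. The carbon skeletons go to glucose, fat or the citric acid cycle, while serine, glycine, histidine and methionine feed the folate and methionine cycles that carry single carbon units.

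Values are given as deposited, in CPM (reads of a gene scaled to a common library total), and a fold change is the difference of mean log2(CPM + 0.5) between 2 types, a scale that understates the change of genes at low levels. A gene was called when limma gave an adjusted p under 0.05 and the absolute log2 fold change was over 1.5. All 89 members passed the filter on low values, which asked that the mean of 1 or more types exceed 1 CPM, and 81 did so in every type. Called members among the others were otc and prodhb, with PC means of 0.596 and 0.725 CPM. Those 2 passed only through the types in which they were higher, so their differences from PC start near the floor. Together the 89 members took between 1.62% and 2.49% of a library. Within a type, replicate livers differed in a member by a median of 0.34 (F1CB), 0.42 (F1BC), 0.60 (PC) and 0.56 (PB) on the log2 scale. Sums of 13 rows matched by name to the hepatocyte list lay between 93200 and 117000 CPM in the 4 hybrid livers, all above the 67700 to 90000 CPM of the 4 parental livers. The 12 rows matched to the pancreatic list summed to between 1350 and 4710 CPM and 5 red blood cell rows to between 95.3 and 883 CPM. By the start of their names alone, apobec2a entered the hepatocyte sum and PRSS23 and PRSS35 the pancreatic sum. The part of these sums in the results was not tested, and in whole tissue fewer cells of a type and less RNA per cell cannot be told apart. Reads of all types were mapped to the channel catfish genome. The part of that in differences from PB, or in those of the hybrids, which also carry blue catfish alleles, was not tested.

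Per kilobase of listed transcript, member levels over the 8 livers spanned 0.214 to 2660 CPM, with a median of 15.8. The highest was that of hpda, the 4-hydroxyphenylpyruvate dioxygenase that makes homogentisate in tyrosine breakdown. It was followed by cdo1, cysteine dioxygenase, at 933 CPM per kilobase, agxtb, an aminotransferase that clears glyoxylate, at 654, tat, tyrosine aminotransferase, at 578, tdo2b, which opens the ring of tryptophan, at 520, and ahcy, which hydrolyses S-adenosylhomocysteine, at 518. Further down, uroc1 was the highest gene of histidine breakdown at 198 CPM per kilobase, arg1 of the urea cycle at 187, gamt of creatine synthesis at 119 and bcat1 of branched-chain amino acids at 27.0.

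Between the parental species, 31 of the 89 members were called, 13 higher in PC (14.6% of members, against 9.12% of all genes tested) and 18 lower (20.2%, against 6.69%). Without the 5 proteins of other pathways the counts were 13 higher and 16 lower of 84. The median log2 difference of the members was 0.17 for PC over PB, against 0.02 over all genes. Their summed level was 24900 and 24800 CPM in PC livers, against 19900 and 16200 CPM in PB livers. A few abundant genes weigh most in this sum, which does not describe the members as a set. The mean of cdo1 alone was 4920 CPM in PC and 504 CPM in PB, while that of bhmt was 350 and 1640 CPM. The calls fell in opposite directions within some pathways and not within others, as the plot of members by role shows. Of 8 urea cycle, arginine and proline genes, 1 was called higher in PC and 4 lower, and of 4 histidine breakdown genes 3 were called higher. The methionine and sulfur group had 2 higher and 4 lower of 20, or 2 higher and 3 lower of 16 without the proteins of other pathways. Transamination, glutamate and glutamine genes had 2 higher and 6 lower of 15, or 2 higher and 5 lower of 14 without got1a. Without PB replicate 2 the count was 15, and it stayed between 21 and 30 without any other library.

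**Figure D1:**
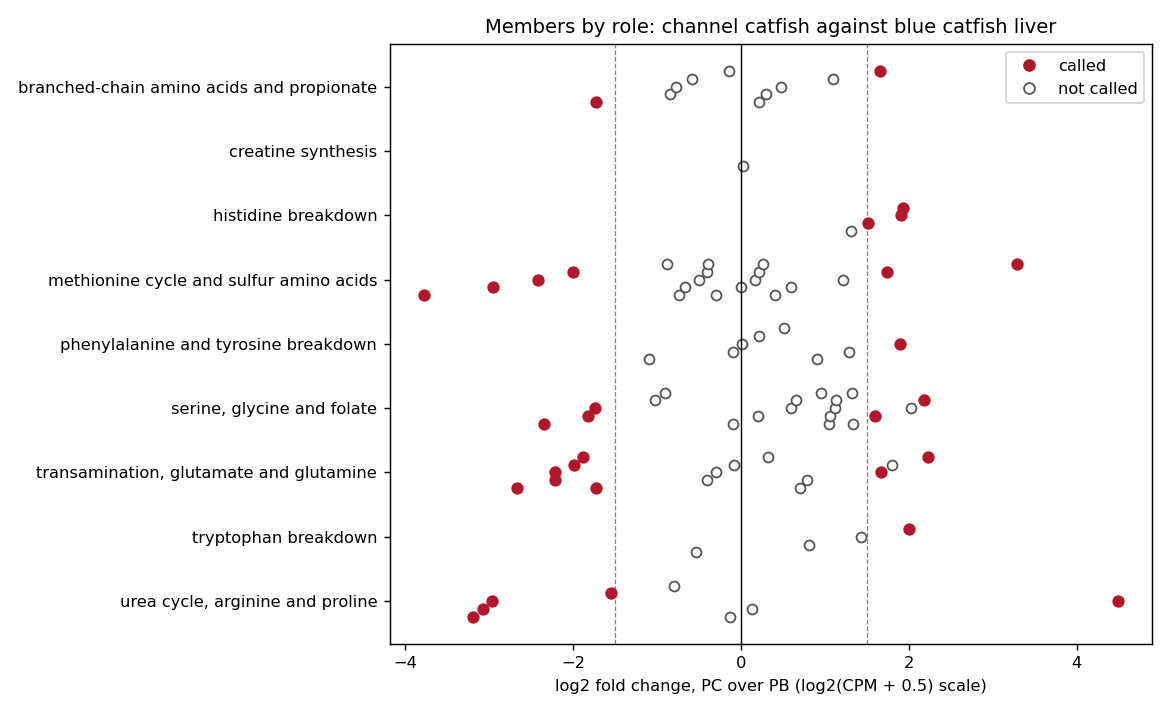
Each point is 1 of the 89 members, placed by its log2 fold change of PC over PB on the log2(CPM + 0.5) scale and grouped by role, with vertical offsets only to separate points. Filled points were called, and dashed lines mark the log2 fold change of 1.5 in either direction. Among 8 urea cycle, arginine and proline genes the 4 called lower lie beyond the left dashed line and oat at the far right. The 4 histidine genes all lie to the right of 0.

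The largest fold change of a member between the parents was in ornithine metabolism. The gene for ornithine aminotransferase, oat (ENSIPUG00000002393), whose enzyme turns ornithine into glutamate semialdehyde, had 412 and 209 CPM in PC livers, against 6.59 and 23.6 CPM in PB livers, a log2 fold change of 4.49 (SE 0.56, adjusted p = 0.000355). Calls in the opposite direction were made for 3 urea cycle genes. Argininosuccinate synthase, ASS1 (ENSIPUG00000019295), which joins citrulline to aspartate, had 35.6 and 81.2 CPM in PC, against 711 and 343 CPM in PB (log2 fold change -3.19, SE 0.50, adjusted p = 0.00157). Ornithine carbamoyltransferase, otc (ENSIPUG00000011057), which makes citrulline from ornithine, had 0.672 and 0.521 CPM in PC, against 10.2 and 6.35 CPM in PB (-2.97, SE 0.51, adjusted p = 0.00262). The calls of oat, ASS1 and otc held with each library left out. That of otc, like that of prodhb below, starts from a PC level near the floor. Hepatic arginase, arg1, which splits arginine into ornithine and urea, had 111 and 83.1 CPM in PC and 323 and 246 CPM in PB (-1.55, adjusted p = 0.0157). Its call was lost without PC replicate 2 or PB replicate 1, where the log2 fold change was -1.35 in each case. Proline dehydrogenase prodhb, which starts proline breakdown, was at 0.168 and 1.28 CPM in PC and at 4.30 and 17.0 CPM in PB (-3.07, adjusted p = 0.0197). Without PC replicate 1 and PB replicate 2 its adjusted p was 0.117 and 0.174, with log2 fold changes of -2.36 and -2.14. The other members of the group, argininosuccinate lyase asl, arg2 and aldh4a1, were not called, with log2 differences of -0.13, -0.80 and 0.13.

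In the hybrids, the levels of ASS1, otc and arg1 stood nearer PB than PC, while those of asl were under both parents, as given further on. ASS1 had 439 and 436 CPM in F1CB livers and 560 and 305 CPM in F1BC livers, all above both PC livers, with log2 fold changes over PC of 3.01 (SE 0.50, adjusted p = 0.0132) and 2.93 (SE 0.50, adjusted p = 0.0203). For otc the levels were 8.89 and 4.25 CPM in F1CB and 13.1 and 12.6 CPM in F1BC, again above PC (2.61, adjusted p = 0.0261, and 3.61, adjusted p = 0.00717). Its PC level was near the floor, so the size of these differences depends on the constant added before the log. The level of arg1 was 247 and 224 CPM in F1CB and 302 and 219 CPM in F1BC, which also exceeded both PC livers, but the differences of 1.29 and 1.42 were not called. By contrast, oat had 22.1 and 31.4 CPM in F1CB and 228 and 165 CPM in F1BC. It was thus lower in F1CB than in PC by a called difference (-3.45, SE 0.56, adjusted p = 0.0127) and higher in F1BC than in PB (3.89, SE 0.56, adjusted p = 0.00369). The last of these held without each library, and the others were each lost without one or more. Without PC replicate 1, F1CB replicate 1 and F1CB replicate 2, the adjusted p of oat in F1CB against PC was 0.0735, 0.0952 and 0.0933. Those of ASS1 were 0.0673, 0.0912 and 0.125, and those of otc 0.0756, 0.153 and 0.0926. For F1BC against PC, ASS1 was lost without PC replicate 1 (adjusted p = 0.0865) and without F1BC replicates 1 and 2 (0.124 and 0.0594), and otc without the same F1BC replicates (0.0713 and 0.0765). The smallest log2 fold change in any of these fits was 2.12, that of otc without F1CB replicate 1.

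Consecutive steps of cysteine breakdown differed in opposite directions between the species. The product of cdo1 (ENSIPUG00000025116) oxidises cysteine to cysteine sulfinate, from which csad (ENSIPUG00000022545) makes hypotaurine, the precursor of taurine. Levels of cdo1 were 5430 and 4410 CPM in PC, against 569 and 440 CPM in PB (log2 fold change 3.29, SE 0.37, adjusted p = 0.000175). Those of csad were 16.7 and 32.0 CPM in PC, against 234 and 442 CPM in PB (-3.77, SE 0.47, adjusted p = 0.000357). Both calls held with each library left out. Betaine-homocysteine methyltransferase, bhmt, which returns homocysteine to methionine, was lower in PC, at 170 and 531 CPM, against 1940 and 1330 CPM in PB (-2.42, adjusted p = 0.00706). The cystathionine gamma-lyase gene cthl, whose enzyme yields cysteine, was higher in PC, at 48.7 and 130 CPM, against 19.3 and 28.5 CPM in PB (1.74, adjusted p = 0.0274). Without PB replicate 1 the adjusted p of bhmt was 0.0544, with a log2 fold change of -2.15. The call of cthl was lost without PC replicate 2 (1.04, adjusted p = 0.122), PB replicate 1 (1.46, adjusted p = 0.132) and PB replicate 2 (2.02, adjusted p = 0.0672).

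For the hybrids, cdo1 lay between the parents, with 2230 and 2110 CPM in F1CB and 2350 and 1490 CPM in F1BC. It was called higher than PB in both crosses, by 2.11 in F1CB (adjusted p = 0.0139) and 1.90 in F1BC (adjusted p = 0.0192). Levels of csad were 48.8 and 45.3 CPM in F1CB, below the 104 and 181 CPM of F1BC. It was called lower in F1CB than in PB (-2.76, adjusted p = 0.0134) and higher in F1BC than in PC (2.54, adjusted p = 0.0312). Levels of bhmt were 916 and 1270 CPM in F1CB and 369 and 293 CPM in F1BC, and F1BC was called lower than PB (-2.29, adjusted p = 0.0338). All hybrid livers exceeded both PB livers for cthl, with 131 and 128 CPM in F1CB and 109 and 85.7 CPM in F1BC (2.44, adjusted p = 0.0255, and 2.02, adjusted p = 0.0477). Each of these hybrid calls was lost with at least 1 library left out. Against PB, cdo1 had adjusted p-values of 0.13, 0.153 and 0.158 in F1CB without PB replicate 2, F1CB replicate 1 and F1CB replicate 2. In F1BC they were 0.14, 0.204, 0.0677 and 0.05 without PB replicate 2, F1BC replicates 1 and 2 and F1CB replicate 1. The values of csad in F1CB against PB were 0.154, 0.115 and 0.143 without PB replicate 2 and F1CB replicates 1 and 2. In F1BC against PC they were 0.117 without PC replicate 1, 0.0757 and 0.36 without F1BC replicates 1 and 2, and 0.0639 and 0.0625 without F1CB replicates 1 and 2. For cthl in F1CB against PB they were 0.104, 0.12, 0.164 and 0.201 without PB replicates 1 and 2 and F1CB replicates 1 and 2. In F1BC against PB, the calls of cthl and bhmt were lost on leaving out either PB library or any hybrid library, with adjusted p then between 0.0619 and 0.254, and that of bhmt also with median-of-ratios scaling (-1.92, adjusted p = 0.074). The call of cthl was lost too with a pseudocount of 0.1 (2.04, adjusted p = 0.0505) and with the filter at 5 CPM (2.02, adjusted p = 0.0522).

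**Figure D2:**
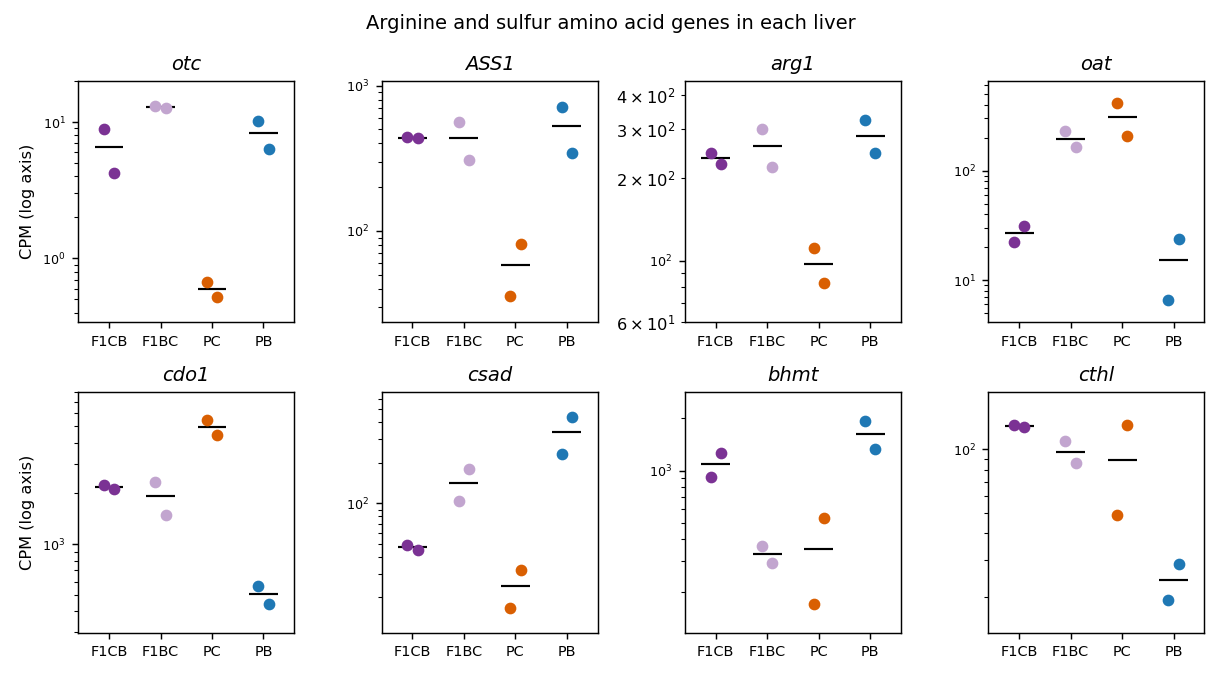
Each point is the CPM of 1 liver on a log axis, with 2 livers per genetic type and a bar at their mean. PC livers lie below all others for otc, ASS1 and arg1 and above all others for cdo1, while for oat F1CB lies near PB and F1BC near PC.

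Among the remaining genes of the methionine cycle, mat2al, which is described as an S-adenosylmethionine synthase, was lower in PC at 7.87 and 20.7 CPM, against 42.4 and 65.5 CPM in PB (-2.0, adjusted p = 0.0291). It was not called without PC replicate 1 (-1.33) or PB replicates 1 and 2 (-2.31 and -1.69), with adjusted p-values of 0.174, 0.0624 and 0.172. The RNA helicase gene mtrex had 9.80 and 17.7 CPM in PC and 124 and 89.4 CPM in PB (-2.95, adjusted p = 0.00132), a call that held without each library. It was also called higher in F1CB, at 60.8 and 95.6 CPM, than in PC (2.49, adjusted p = 0.017), except without PC replicate 1 and F1CB replicates 1 and 2, where its adjusted p was 0.087, 0.0834 and 0.198. The abundant ahcy, with 948 and 887 CPM in PC and 2000 and 1420 CPM in PB, did not pass (-0.88, adjusted p = 0.0985). Neither did cbsa, the gene for cystathionine beta-synthase (-0.74), or gnmt (0.26), whose enzyme spends S-adenosylmethionine on glycine.

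Genes of glutamate and glutamine differed between paralogs. Of the glutamine synthetase genes, glula (ENSIPUG00000014378) was higher in PC, with 1620 and 1330 CPM, against 404 and 241 CPM in PB (2.23, SE 0.42, adjusted p = 0.00464). The much less abundant glulb was lower in PC, with 2.04 and 7.24 CPM, against 15.7 and 49.0 CPM in PB (-2.67, SE 0.71, adjusted p = 0.0244). The glula call held with each library left out, and that of glulb was lost without PC replicate 1 or PB replicate 2 (-1.87 in both fits, adjusted p = 0.151 and 0.198). Among glutaminase genes, whose enzymes release ammonia from glutamine, gls2b had 46.3 and 38.6 CPM in PC and 158 and 156 CPM in PB (-1.88, adjusted p = 0.00543). Its paralog gls2a had 51.9 and 256 CPM in PC and 19.3 and 55.8 CPM in PB, an overlap, and was not called (1.80, adjusted p = 0.091). Glutamate dehydrogenase glud1a was lower in PC, with 3.50 and 4.66 CPM, against 10.3 and 20.7 CPM in PB (-1.73, adjusted p = 0.0322), while the more abundant glud1b was not called (-0.08). The glud1a call was lost without PC replicate 1 (-1.55, adjusted p = 0.116), PB replicate 2 (-1.25, adjusted p = 0.203) and F1BC replicates 1 and 2 (adjusted p = 0.0535 and 0.0541). How reads of near-identical paralogs were counted was not given, so the split between the genes of a pair is uncertain.

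Among the aminotransferases, the mitochondrial aspartate enzyme got2 was higher in PC, with 588 and 581 CPM, against 170 and 197 CPM in PB (1.67, adjusted p = 0.00697). The glyoxylate-clearing agxtb had 446 and 351 CPM in PC, against 1710 and 1450 CPM in PB (-1.99, adjusted p = 0.00833), whereas its paralog agxta had 533 and 344 CPM in PC and 285 and 216 CPM in PB and was not called (0.79). A mitochondrial relative, agxt2, was lower in PC at 42.3 and 21.0 CPM, against 127 and 156 CPM in PB (-2.22, adjusted p = 0.00794), and was lost only without PB replicate 2 (-2.07, adjusted p = 0.0624). The vesicle transport gene got1a was lower in PC as well, at 8.01 and 10.7 CPM, against 55.4 and 36.5 CPM in PB (-2.22, adjusted p = 0.00435). Alanine aminotransferase genes gpt2l and gpt2 were not called (-0.30 and -0.40). In the hybrids, agxtb had 1390 and 2770 CPM in F1CB, called higher than PC (2.31, adjusted p = 0.0181), and 490 and 818 CPM in F1BC, which was not (0.68). Without F1CB replicate 2 the first of these was 1.81 (adjusted p = 0.221). The levels of glula were 2180 and 1270 CPM in F1CB, called higher than PB (2.41, adjusted p = 0.0148), and 1230 and 764 CPM in F1BC, which was not (1.63). Without PB replicate 2 and F1CB replicates 1 and 2, the F1CB call had adjusted p-values of 0.154, 0.172 and 0.0682.

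**Figure D3:**
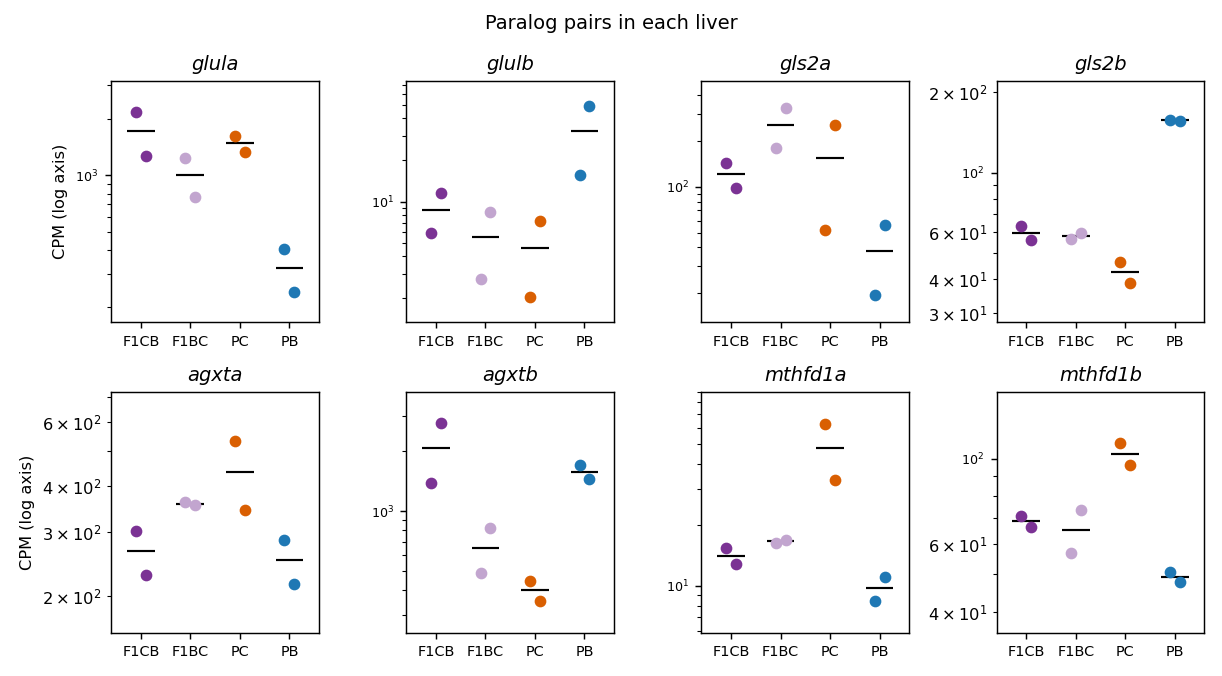
Each point is the CPM of 1 liver on a log axis, with 2 livers per genetic type and a bar at their mean, for the glutamine synthetase, glutaminase, alanine-glyoxylate aminotransferase and methylenetetrahydrofolate dehydrogenase paralogs. PC lies above PB for glula and below PB for glulb, gls2b and agxtb, while F1CB lies with PB for agxtb.

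All 4 histidine breakdown genes, which act in sequence from hal through uroc1 and AMDHD1 to ftcd and deliver a carbon unit to folate, were at higher levels in PC. AMDHD1 had 99.8 and 93.9 CPM in PC, against 32.0 and 19.5 CPM in PB (1.93, adjusted p = 0.007), and ftcd had 722 and 641 CPM, against 255 and 128 CPM in PB (1.91, adjusted p = 0.00985). The difference of uroc1 was close to the threshold, at 707 and 794 CPM in PC and 383 and 179 CPM in PB (1.52, adjusted p = 0.0311). The upstream enzyme gene hal missed it (1.31, adjusted p = 0.0755). Without PB replicate 2 none of the 3 calls held (1.58, 1.41 and 0.97 for AMDHD1, ftcd and uroc1, with adjusted p of 0.0597, 0.0831 and 0.215). The uroc1 call was also lost without PC replicates 1 and 2 and F1CB replicates 1 and 2 (adjusted p = 0.0662, 0.0633, 0.0556 and 0.0551), and under the fold threshold with median-of-ratios scaling (1.48). Hybrid livers had 43.3 to 69.0 CPM for AMDHD1, 329 to 533 CPM for ftcd and 349 to 590 CPM for uroc1, with no call against either parent.

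For the aromatic amino acids, the last enzyme of tyrosine breakdown, fah, was higher in PC at 371 and 140 CPM, against 64.1 and 57.0 CPM in PB (1.90, adjusted p = 0.0147), and kynu of the kynurenine pathway was higher at 380 and 167 CPM, against 66.4 and 58.9 CPM in PB (2.0, adjusted p = 0.00959). Of the earlier tyrosine genes, pah (0.01), tat (0.21), hpda (0.51) and hgd (0.91) were not called. The enzyme before fah, gstz1, passed the adjusted p (0.0325) with a log2 fold change of 1.29, under the threshold. In tryptophan breakdown tdo2b, kmo and haao were not called (-0.53, 1.43 and 0.81), and replicate livers of tdo2b spanned 309 to 1510 CPM within PB alone. Without PC replicate 1, PB replicate 1 and PB replicate 2 the fah values were 1.2, 1.99 and 1.82 (adjusted p = 0.0885, 0.0546 and 0.0837). Those of kynu without PC replicate 1 and PB replicate 2 were 1.41 and 1.92 (adjusted p = 0.0576 and 0.0629).

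In serine, glycine and folate metabolism, 2 of 19 genes were called higher in PC and 3 lower. Over all genes the shares were 9.12% higher and 6.69% lower. The cytosolic folate enzyme gene mthfd1a had 62.8 and 33.1 CPM in PC, against 8.44 and 11.1 CPM in PB (2.18, adjusted p = 0.00723), and this held without each library, while its more abundant paralog mthfd1b was not called (1.05, adjusted p = 0.0717). The mitochondrial serine hydroxymethyltransferase gene shmt2 had 140 and 132 CPM in PC, against 45.9 and 43.4 CPM in PB (1.60, adjusted p = 0.0132), and its cytosolic counterpart shmt1 was not called (0.20). Lower in PC were psat1 of serine synthesis, at 1.46 and 5.65 CPM, against 14.7 and 19.8 CPM in PB (-2.34, adjusted p = 0.0192), and gldc of the glycine cleavage system, at 37.0 and 9.26 CPM, against 84.5 and 53.2 CPM in PB (-1.82, adjusted p = 0.0444). The third was mthfsd, described only by its methenyltetrahydrofolate synthetase domain, at 5.24 and 2.01 CPM in PC and 10.9 and 13.5 CPM in PB (-1.74, adjusted p = 0.0381). The serine synthesis gene phgdh had 2.55 and 3.55 CPM in PC and 0.096 and 0.734 CPM in PB and was not called (2.03, adjusted p = 0.0627). The calls of gldc and mthfsd each held without 1 of the 8 libraries only, PC replicate 1, and lay between -0.85 and -2.15 and between -1.14 and -1.88 in the other fits. That of shmt2 was lost without PB replicate 2 (1.56, adjusted p = 0.0661), and that of psat1 without PC replicate 1 (-1.51, adjusted p = 0.121) and PB replicates 1 and 2 (-2.55 and -2.13, adjusted p = 0.0589 and 0.116).

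Branched-chain genes gave 1 call in each direction of 10, beside 9.12% higher and 6.69% lower over all genes. The leucine-pathway carboxylase subunit mccc1 was higher in PC, at 64.1 and 54.6 CPM, against 12.1 and 27.7 CPM in PB (1.66, adjusted p = 0.0286). The kinase bckdk, which switches off the branched-chain ketoacid dehydrogenase, was lower in PC, at 10.1 and 18.9 CPM, against 58.7 and 37.6 CPM in PB (-1.73, adjusted p = 0.0282). The dehydrogenase subunits bckdha and bckdhb themselves were not called (0.30 and -0.58), and neither was bcat1 (0.21). Without PC replicate 1 and PB replicate 1, mccc1 stood at 1.54 and 1.08 (adjusted p = 0.1 and 0.171), and bckdk at -1.29 and -1.41 (adjusted p = 0.145 and 0.142). Without PB replicate 2 bckdk stood at -2.05 (adjusted p = 0.0624). The creatine gene gamt differed by 0.02.

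The 58 members not called between the parents had log2 differences of PC over PB from -1.09 to 2.03, of which 35 were positive and 22 negative. Outside the members, 48 further genes of these pathways and their transporters were tested, of which 3 were called higher in PC (6.25%, against 9.12% of all genes) and 4 lower (8.33%, against 6.69%), shares near those of all genes. The cationic amino acid transporter gene slc7a2, whose product carries arginine, lysine and ornithine, had 964 and 395 CPM in PC, against 90.7 and 33.9 CPM in PB (3.46, adjusted p = 0.0021). A mitochondrial ornithine carrier gene, slc25a15, was lower in PC, at 1.71 and 0.527 CPM, which is near the floor, against 10.4 and 11.3 CPM in PB (-2.91, adjusted p = 0.00337). Its paralog slc25a15b had 3.08 and 1.78 CPM in PC and 0.494 and 0.357 CPM in PB and was not called (1.63, adjusted p = 0.134). In lysine breakdown, aass was higher (1.96, adjusted p = 0.00875) and aadat lower in PC (-2.62, adjusted p = 0.00188). The other calls included hoga1, of hydroxyproline breakdown, higher in PC (1.97, adjusted p = 0.00633), and mcee, of propionate breakdown, lower (-1.94, adjusted p = 0.0263). Whether the calls of these further genes held with a library left out was not examined.

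Few members were called between a hybrid and a parent. Against PC, 5 were called in F1CB, 4 higher (4.49% of members, against 1.04% of all genes) and 1 lower (1.12%, against 0.999%), and 3 in F1BC, all higher (3.37%, against 0.432%, with 0 lower against 0.373%). Against PB, 4 were called in F1CB, with 3 higher (3.37%, against 1.07%) and 1 lower (1.12%, against 0.358%), and 4 in F1BC, with 3 higher (3.37%, against 1.34%) and 1 lower (1.12%, against 0.939%). These comparisons share the livers of a parent or of a hybrid. All of the genes called here were also called between PC and PB. With median-of-ratios scaling F1BC against PB gave 6 higher and 0 lower. The counts rested on single libraries. Without PC replicate 1, PC replicate 2, F1CB replicate 1 and F1CB replicate 2, F1CB against PC gave 1, 11, 1 and 0, and F1BC against PC gave 1 without PC replicate 1 and 0 without either F1BC replicate. F1CB against PB gave 0 without PB replicate 2 or either F1CB replicate. F1BC against PB gave 1 without PB replicate 2, F1BC replicate 1, F1BC replicate 2 or F1CB replicate 1, and 2 without PB replicate 1 or F1CB replicate 2.

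As deposited, the median over all genes was below 0 in the comparisons of a hybrid with a parent, and the median of the members was not. The median log2 difference of F1CB over PC was 0.04 in members and -0.22 in all genes, that of F1BC over PC 0.01 and -0.37, that of F1CB over PB 0.18 and -0.18, and that of F1BC over PB 0.02 and -0.35. With median-of-ratios scaling the medians over all genes were -0.02, -0.01, -0.01 and -0.01, and those of the members 0.26, 0.37, 0.38 and 0.39. The gap between the medians was thus similar under both scalings. The hepatocyte sum was also higher in the hybrids, as given above, and its part in this was not tested.

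Each hybrid was then placed between the parents for the 31 members called between them, as a percentage of the way from PB (0%) to PC (100%) on the log2 scale. This describes the same livers that gave the calls, and choosing members far apart between the parents favours hybrid means between them. The share of all genes called between the parents with hybrid means between them was not taken. F1CB means lay at a median of 42.5%, from -15.8% to 140%, with 28 of 31 between the parents, and F1BC means at a median of 63.4%, from -21.4% to 116%, with 29 of 31 between them. Both hybrids were nearer PC for 12 members (38.7%, against 28.3% of all genes called between the parents) and nearer PB for 7 (22.6%, against 35.2%). For 9 members each hybrid was nearer the species of its sire (29.0%, against 23.4%), among them oat, bhmt, agxtb, fah and bckdk. For 3, namely csad, gldc and psat1, each was nearer the species of its dam (9.68%, against 13.0%), although psat1 in F1CB lay almost at the midpoint (50.1%). The farthest apart were oat, at 23.1% in F1CB and 86.7% in F1BC, agxtb, at -15.8% and 66.1%, and bhmt, at 23.9% and 94.7%.

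**Figure D4:**
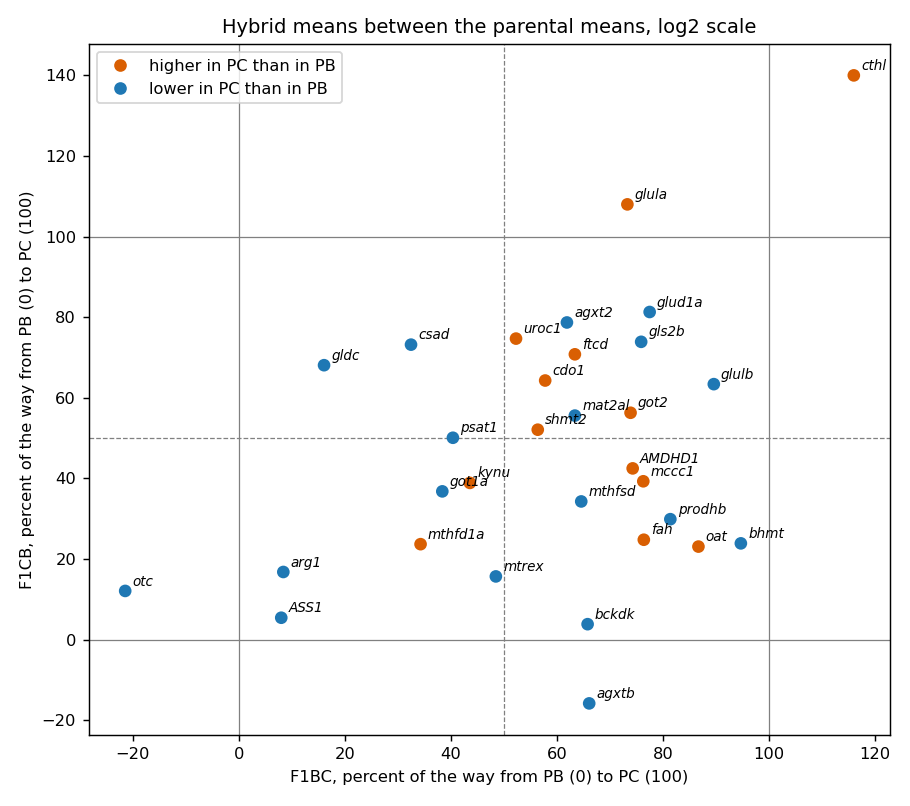
Each point is 1 of the 31 members called between PC and PB, placed by the mean log2 level of F1CB (vertical) and F1BC (horizontal) as a percentage of the way from PB at 0 to PC at 100. Solid lines mark the parents and dashed lines the midpoint. ASS1, otc and arg1 lie near PB in both crosses, cthl beyond PC in both, and oat, bhmt and agxtb to the lower right, where F1CB is nearer PB and F1BC nearer PC.

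Set directly against each other, the reciprocal hybrids gave no called member. For F1CB over F1BC limma called 0 members in either direction, against 0.0671% of all genes higher and 0.082% lower, while 10 members and 1085 genes in all had an unadjusted p under 0.05. The largest difference was that of oat (-2.85, SE 0.56, adjusted p = 0.119), whose F1CB livers lay below its F1BC livers. It was followed by bhmt (1.71, adjusted p = 0.378), gpt2 (1.68, adjusted p = 0.549) and agxtb (1.63, adjusted p = 0.268). In a fit of the 2 hybrids alone, oat was called (adjusted p = 0.0129).

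No member was called between the hybrids and the mid-parent value either. With both hybrids set against the mid-parent value, the mean of PC and PB on the log2 scale, limma called 0 members, against 0.0298% of all genes higher and 0.0149% lower, and 10 members and 1887 genes had an unadjusted p under 0.05. The largest difference was that of otc (1.62, SE 0.36, adjusted p = 0.124), whose PC level was near the floor. Without PC replicate 2 cthl was called (1.71, adjusted p = 0.0352). By a fold rule modelled on that of the study, with no test, both hybrid means exceeded the higher parent by over 1.2 times for 1 member (1.12%, against 1.43% of genes). It was the glycine cleavage gene gcshb, with 68.6 and 85.1 CPM in F1CB, 85.5 and 79.5 CPM in F1BC, 39.5 and 52.0 CPM in PC and 60.9 and 39.0 CPM in PB. Both hybrid means were under 0.8 times the lower parent for 2 members (2.25%, against 13.0%). The argininosuccinate lyase gene asl had 3.35 and 3.63 CPM in F1CB, 2.68 and 2.43 CPM in F1BC, 8.40 and 5.04 CPM in PC and 5.87 and 8.82 CPM in PB. The other, mat1a, was at or under 2.80 CPM in every liver. The paper reports fewer such genes in each direction, so its own selection was not reproduced here. These shares were taken on the deposited scaling, under which the hybrid medians over all genes were below those of the parents.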

How the data were processed

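Liver RNA of 8 fish was measured, 2 per type. The authors trimmed paired reads (Trimmomatic 0.39 per the labels), aligned them with TopHat2 2.1.1 to the genome of channel catfish, counted them on gene models with bedtools 2.29.0 and scaled them in edgeR. The genome build, and whether counting used the strand, are not given in the sources used here, so genes overlapping on opposite strands are uncertain. The authors call the deposited values RPKM, but they were read as CPM: library totals are 996838 to 998652, and a gene's log2 mean differs by a median of -0.00892 from the deposited average log2 CPM column (-1.68 after division by transcript length). Low values were not on steps of 1 read, so reads could not be recovered from the files and no count test was run, and read depths from other sources were not used here. The 13420 genes whose mean exceeded 1 CPM in any type were fitted with limma 3.58.1 (R 4.3.3) on log2(CPM + 0.5), all 8 libraries together, with an intensity trend. P-values were adjusted over all genes (Benjamini-Hochberg) within each of 7 comparisons. The fit was tested on simulated data, made of genes with a mean over 5 CPM and of changes well above the fold threshold. That test does not cover genes at lower levels or changes near the threshold. The replicate livers are separate fish. Named genes were every called member, the highest member per role by level per kilobase, the largest difference where none was called, and at most 6 genes of the further list, and other uncalled members were named for context after their values were seen. The level of 1 gene that this rule names is not reported here. The members and lists were chosen with earlier results of these data known. Alternatives were pseudocounts of 0.1 and 1, scaling by median of ratios or quantiles, no filter or one at 5 CPM, a replicate block, fits of the compared types alone, no fold threshold, and each library left out.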

Additional observations from a re-analysis of the deposited data

How the results depend on the processing

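The count of called members kept within 1.5 times its value under both pseudocounts, both filters, both scalings and no fold threshold in all 7 comparisons. In fits of the compared types alone it was 22 for PC against PB (31 in the fit of all types), 3 for F1CB against PC (5), 1 for F1BC against PC (3) and 1 for F1CB against F1BC (0). The calls lost there were mccc1, cthl, uroc1, shmt2, arg1, gldc, bckdk, glud1a and mthfsd between the parents, mtrex and otc in F1CB against PC, and csad and ASS1 in F1BC against PC. With the replicate number as a block it was 8 for F1CB against PC (5), 7 for F1BC against PB (4) and 32 for PC against PB (31), with no other count changed. The numbers share no stated batch or parentage, and differences between replicates 1 and 2 correlated across genes by -0.01 to 0.14 between types. With 1 library left out, the counts ranged from 15 to 30 for PC against PB, 0 to 11 for F1CB against PC, 0 to 4 for F1BC against PC, 0 to 5 for F1CB against PB, 1 to 6 for F1BC against PB, 0 for F1CB against F1BC and 0 to 1 for the mid-parent comparison. The cause of these changes was not tested. In the fits without 1 library the lone sample of a type is assumed to vary like the others. Of 752 refits of called fold changes, 0 reversed, 630 kept the call and 122 lost it. In 12 of the 31 members called between the parents, the call held under all 16 alternatives. The median of the members moved by more than 0.08 in 24 of 111 refits. That value is the standard deviation within types of the median log2 level of the members in a library. The values carry no read depth. The precision of low genes such as otc, prodhb and phgdh is thus known only from the spread between replicate livers, 2 per type, in the shared fit.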

Other observations

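In mammals MAT1A is the S-adenosylmethionine synthase gene of adult liver. The gene listed as mat1a had at most 2.80 CPM in any liver, and 0.00702 CPM in F1CB replicate 2. The one listed as mat2aa had 229 and 194 CPM in F1CB, 357 and 233 CPM in F1BC, 99.4 and 451 CPM in PC and 189 and 176 CPM in PB, and was not called in any comparison. Its symbol, like all others, is that of the deposited table, and its sequence was not checked here.

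Some members differed more, as a ratio, between the 2 PC livers than between the means of PC and PB. In PC replicates 1 and 2, mat2aa had 99.4 and 451 CPM, shmt1 63.8 and 232 CPM, gls2a 51.9 and 256 CPM and dmgdh 458 and 123 CPM. No label gives a feeding state, sex or time of sampling for these fish, and no cause of the difference was tested.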
